A study of Mus musculus with 8 samples.

Results

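The mitosis and cytokinesis genes are 39 genes taken by symbol, all of which were among the 23467 genes of the table and all of which passed the filter of a mean of at least 1 RPKM (reads of a gene per length of its transcript, relative to all reads of its library), which left 13421 genes for testing. They were grouped by role as 12 mitotic kinases and cyclins, 6 centromere and kinetochore genes, 7 spindle motors and spindle assembly genes, 6 genes of the chromosomal passengers and cytokinesis, 4 genes of anaphase and mitotic exit, 2 chromatin and proliferation markers and 2 transcription factors. RNA of cultured mouse liver cells was sequenced in 8 libraries. Hepatoblasts, the precursors of hepatocytes and of the biliary epithelial cells (BECs) that line the bile ducts, were isolated from fetal livers of a B6;129 mixed strain at E14.5 and grown on collagen (iHB). Some were then treated with oncostatin M at 12.5 ng/ml for 5 days by the labels to form hepatocytes (iHP), and others were kept on Matrigel for 14 days to form BECs (iBEC). Control cells are labelled wild type, and L1L2_Alb cells are labelled *Lats1*-/-;*Lats2*f/fl;*Alb-cre*, so *Lats1*, a kinase of the Hippo pathway, is lost from the germ line and *Lats2* is removed where the albumin promoter drives the recombinase. There was 1 control library for each of the 3 stages, 1 L1L2_Alb library for iHB and 2 each for iHP and iBEC. All libraries came from digested livers whose red blood cells were lysed and whose cells were plated with no sort, so other liver cells, in which *Alb-cre* is not active, may be present.

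Cells enter mitosis when CDK1 bound to cyclin B becomes active, and the kinases PLK1 and Aurora then build the spindle. Kinetochores join chromosomes to its microtubules, and the checkpoint kinases hold anaphase until every chromosome is attached. CDC20 then directs the anaphase-promoting complex to destroy cyclin B and securin, and the central spindle and anillin guide the cleavage of the cell. RNAs of these genes peak together late in the cell cycle, held down early in the cycle by the DREAM complex and raised later by B-MYB and FOXM1, which act at promoters with a cell cycle homology region (CHR) and CCAAT boxes. In the fetal liver the hepatoblasts divide, as do the blood precursors that the organ holds at that age.

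The promoters come first because many members share letters there that the rule did not use. RefSeq promoters of the GRCm38.p6 build, from 250 bases before to 50 bases after the start, were held for 33 of the 39 members, and none was held for *Aurkb*, *Ccna2*, *Foxm1*, *Incenp*, *Kif20a* and *Tpx2*. The CHR-like letters TTTGAA, read on either strand, were in 24 of these 33 genes (72.7%) and in 20.2% of the 27025 genes with a promoter. CCAAT, on either strand, was in 25 of 33 members (75.8%) and in 41.1% of all genes. The rarer TTCGAA was in 3 members against 1.80% of all genes, and TTTGAA stood with CCAAT in 1 window in 21 members (63.6%) against 7.97% of all genes. TTTGAA was in 12 of the 17 members with a promoter that were called lower in L1L2_Alb libraries, as given below, and in 12 of the 16 that were not called. Of 33 matches to TTTGAA in the 35 windows of the members (*Ect2* and *Prc1* have 2 windows each), 27 lay within 100 bases of the start. These counts describe letters and do not show binding. The promoters below are of *Top2a*, *Ccnb2*, *Cdc20* and *Prc1*, which carry the motifs and fell, of *Nuf2*, which had the largest fall and holds no match, and of *Anln*, the member that was not lower, in which 2 matches to TTTGAA stand side by side on opposite strands. Capitals mark each match to the 3 motifs on either strand, and no matches overlap in these 6.
*Top2a*, chr11:99024140-99024439, minus strand: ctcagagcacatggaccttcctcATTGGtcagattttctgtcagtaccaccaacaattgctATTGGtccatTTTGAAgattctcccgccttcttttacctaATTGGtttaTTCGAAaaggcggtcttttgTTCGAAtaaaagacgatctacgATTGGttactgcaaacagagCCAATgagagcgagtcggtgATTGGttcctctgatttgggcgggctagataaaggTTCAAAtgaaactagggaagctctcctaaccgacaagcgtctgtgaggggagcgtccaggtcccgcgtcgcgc
*Ccnb2*, chr9:70421505-70421804, minus strand: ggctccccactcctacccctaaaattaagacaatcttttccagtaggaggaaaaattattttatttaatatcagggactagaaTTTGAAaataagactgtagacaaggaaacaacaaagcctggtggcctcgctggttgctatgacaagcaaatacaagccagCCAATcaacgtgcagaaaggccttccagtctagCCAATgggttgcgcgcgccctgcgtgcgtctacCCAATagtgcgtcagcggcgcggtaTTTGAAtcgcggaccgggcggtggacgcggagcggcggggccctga
*Cdc20*, chr4:118437294-118437593, minus strand: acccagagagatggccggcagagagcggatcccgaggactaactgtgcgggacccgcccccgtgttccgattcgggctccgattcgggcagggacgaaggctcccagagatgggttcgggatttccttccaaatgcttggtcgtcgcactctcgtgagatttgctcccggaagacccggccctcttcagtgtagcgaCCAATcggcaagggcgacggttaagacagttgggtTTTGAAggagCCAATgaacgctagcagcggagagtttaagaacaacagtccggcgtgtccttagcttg
*Prc1*, chr7:80294201-80294500, plus strand: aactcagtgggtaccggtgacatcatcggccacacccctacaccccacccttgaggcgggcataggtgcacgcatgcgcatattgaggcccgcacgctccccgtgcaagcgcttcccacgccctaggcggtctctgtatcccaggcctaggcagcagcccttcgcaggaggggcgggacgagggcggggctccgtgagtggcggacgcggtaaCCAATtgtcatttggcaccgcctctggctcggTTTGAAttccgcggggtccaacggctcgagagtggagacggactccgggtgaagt
*Nuf2*, chr1:169531415-169531714, minus strand: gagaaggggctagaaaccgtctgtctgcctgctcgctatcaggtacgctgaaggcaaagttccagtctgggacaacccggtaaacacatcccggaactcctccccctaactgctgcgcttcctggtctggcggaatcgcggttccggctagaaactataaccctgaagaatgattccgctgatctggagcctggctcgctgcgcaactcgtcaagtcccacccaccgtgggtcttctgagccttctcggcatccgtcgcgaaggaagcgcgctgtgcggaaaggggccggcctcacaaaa
*Anln*, chr9:22389157-22389456, minus strand: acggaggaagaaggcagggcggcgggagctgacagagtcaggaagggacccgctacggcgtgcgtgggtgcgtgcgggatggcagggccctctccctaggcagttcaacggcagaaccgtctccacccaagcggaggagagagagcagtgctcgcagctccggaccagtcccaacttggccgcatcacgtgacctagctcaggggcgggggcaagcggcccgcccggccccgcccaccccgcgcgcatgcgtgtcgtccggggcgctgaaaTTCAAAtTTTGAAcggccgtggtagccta

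The libraries held 18436865 to 33229078 reads, and whole reads could be recovered for 32 members, at 40 to 6437 reads per member and library, so the depth did not limit the values of these. The RNA of *Lats1* was lower than the control in 1 of the 5 libraries labelled L1L2_Alb and that of *Lats2* in 0, with *Lats1* at 10.6 RPKM in the iHB control against 13.9 in L1L2_Alb iHB, 11.2 against 22.7 and 7.12 in iHP, and 5.38 against 9.69 and 9.91 in iBEC. *Lats2* was at 9.23 RPKM in the iHB control against 19.7 in L1L2_Alb iHB, 10.1 against 17.7 and 27.6 in iHP, and 6.90 against 10.9 and 12.4 in iBEC. The values do not separate reads of the deleted part from the rest of a gene, and every direction below is that of the libraries so labelled. Hepatocyte and biliary genes were present in all 8 libraries, with 9 hepatocyte markers summing to 13896 to 40404 RPKM and 6 biliary markers to 2331 to 23443 RPKM. The 10 macrophage markers summed to 1108 to 4777 RPKM and the 11 mesenchymal markers to 1992 to 5742 RPKM, so the cultures were mixed. The 7 endothelial markers summed to 3.01 to 24.1 RPKM.

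The first question was whether the loss of the Hippo kinases moved the mitotic genes as a group. In L1L2_Alb libraries 38 of 39 members were lower across the stages, 21 passed the test as lower and 0 as higher, and the median log2 fold change was -1.02. Of all genes tested, 452 fell (3.37%) and 832 rose (6.2%), with a median of 0.06. Scaling the libraries to their upper quartile changed that split to 612 genes higher and 577 lower, and quantile normalization to 688 and 616, whereas the members called lower were 30 and 32. The test was limma on log2(RPKM + 1), with fold changes and their standard errors (SE) on that log2 scale, with stage as a block and p adjusted over all 13421 genes. At an unadjusted p under 0.05, 36 members were past the threshold. In a bulk culture, fewer dividing cells and less of these RNAs per cell cannot be told apart.

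The levels themselves were then set in order. In 37 of 39 members all 5 L1L2_Alb libraries were below the control of their own stage, which held for 10.1% of genes tested, and *Anln* and *Spc25* were the exceptions. In 32 members all 5 were below all 3 controls, against 3.7% of genes tested, and *Nek2*, *Melk*, *Spc25*, *Anln*, *Ect2*, *Mki67* and *Mybl2* were the 7 in which the groups overlapped.

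**Figure D1:**
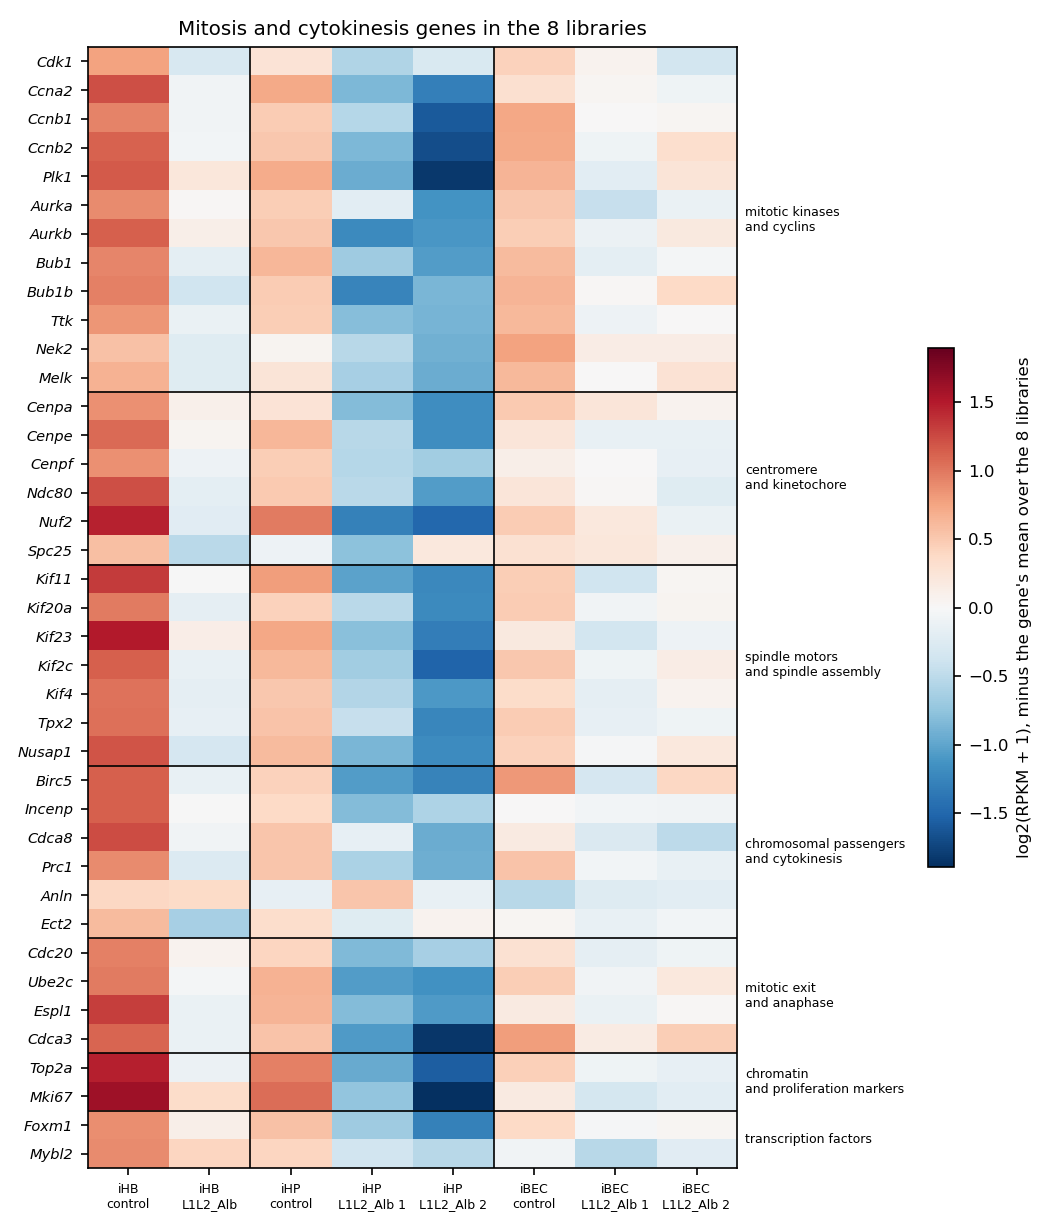
Heat map of the 39 members (rows, by role) in the 8 libraries (columns, by stage), coloured by log2(RPKM + 1) minus the mean of the gene over the 8 libraries. The iHB control column is the highest in most rows and the 2 L1L2_Alb iHP columns are the lowest, with *Anln* and *Spc25* as the rows that stand apart.

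The count of calls rested on few libraries. It was 7 without L1L2_Alb iHP replicate 1, 9 and 7 without L1L2_Alb iBEC replicate 1 and 2, and 0 without the iHB or the iHP stage, and with no filter on low values it was 1. In each of these fits 38 members were still lower, with a median log2 fold change between -0.79 and -1.07. Without the iBEC stage 24 members were called, at a median of -1.31. The labels give the paired libraries of a stage the same replicate number in one field. They do not say whether these came from separate cultures, so the spread within a pair may be technical. The fit of stage and genotype has 4 residual degrees of freedom, against 2 with 1 mean per condition. Its p-values therefore measure the spread within pairs together with any difference of the effect between stages.

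The summed blood cell markers were also lower in each L1L2_Alb library than in the control of its stage. The members' median ratio to the control was 0.414 in iHB, 0.339 and 0.230 in iHP and 0.656 and 0.739 in iBEC. The 17 haematopoietic and erythroid markers summed to 887.5 RPKM in control iHB and 325.6 RPKM in L1L2_Alb iHB. In iHP they summed to 627.2 RPKM in the control and 53.9 and 60.5 RPKM in the L1L2_Alb libraries, and in iBEC to 188.0 RPKM against 42.4 and 97.8 RPKM. The 6 globin genes in this list are alpha and beta sets of near-identical copies. Reads were the same in every library for *Hba-a1* and *Hba-a2*, for *Hbb-b1* and *Hbb-bs*, and for *Hbb-b2* and *Hbb-bt*. Each of these pairs is therefore 1 measurement, entered in the sum under both names. *Ptprc*, the pan-leukocyte CD45, was at 28.0 RPKM in the iHB control against 12.6 in L1L2_Alb iHB, 14.9 against 4.00 and 3.59 in iHP, and 9.17 against 8.67 and 9.82 in iBEC. It was low in both L1L2_Alb iHP libraries and about level in iBEC. *Mpo*, a myeloid granule enzyme, was at 297 RPKM in the iHB control against 155 in L1L2_Alb iHB, 225 against 4.52 and 0.166 in iHP, and 92.2 against 1.43 and 30.8 in iBEC. In all, 8 of the 17 markers were lower than their control in 5 of 5, the beta globin pairs among them. Across stages all 12 markers that passed the filter were lower in sign, at a median log2 fold change of -1.73. In limma 11 of them had an unadjusted p under 0.05, with both names of each globin pair counted. After adjustment 4 of the 12 were called, all of them from the beta globin pairs and so not separate measurements. The log2 fold change for *Ptprc* was -0.93 (SE 0.309, adjusted p = 0.0998). The mesenchymal sum was lower in L1L2_Alb iHB, at 3668 against 5742 RPKM, and in iHP, at 1992 and 2910 against 3507 RPKM, and in iBEC it was 4663 and 3142 against 3188 RPKM, on either side of the control. Across stages 10 of the 11 mesenchymal markers were lower in sign. The other, *Vim*, was called higher by limma (log2 fold change 1.26, adjusted p = 0.0167). It was the largest part of the sum in the L1L2_Alb iHB and iHP libraries, so the sum understates the fall of the rest there. The macrophage sum was 3245 against 3081 RPKM in iHB, lower in iHP, at 1108 and 1972 against 2034 RPKM, and higher in iBEC, at 3708 and 4777 against 1965 RPKM. The part of blood, mesenchymal and macrophage cells in the fall of the members was not tested.

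**Figure D2:**
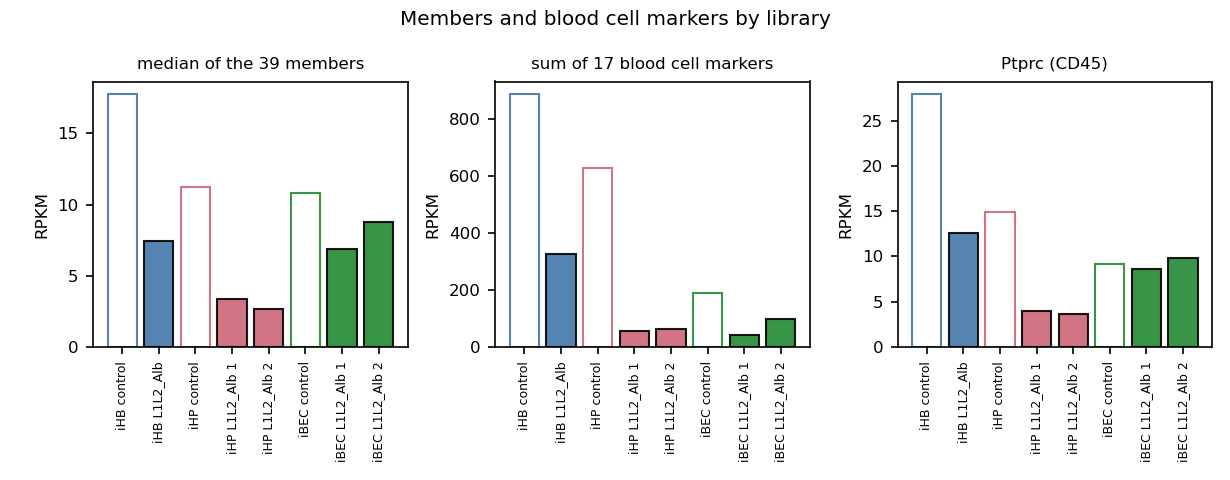
Median RPKM of the 39 members (left), summed RPKM of 17 haematopoietic and erythroid markers (middle) and RPKM of *Ptprc* (right) in each of the 8 libraries, 1 bar a library, open for control and filled for L1L2_Alb. All 3 measures are low in the L1L2_Alb iHP libraries, and in iBEC *Ptprc* lies between 8.67 and 9.82 RPKM.

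Of the 12 mitotic kinases and cyclins 8 fell and 12 were lower, with a median log2 fold change of -1.06. *Cdk1*, the kinase that drives entry into mitosis, was at 23.5, 16.3 and 18.5 RPKM in the iHB, iHP and iBEC controls and at 10.6 RPKM in L1L2_Alb iHB, 8.70 and 10.8 RPKM in L1L2_Alb iHP and 14.2 and 10.3 RPKM in L1L2_Alb iBEC. All 5 L1L2_Alb values lay below the 3 controls, and the log2 fold change of -0.75 (SE 0.194, adjusted p = 0.0480) was the smallest of the 8 falls. *Ccnb1*, its cyclin B1 partner, was at 25.8, 18.4 and 22.2 RPKM in the iHB, iHP and iBEC controls and at 12.3 RPKM in L1L2_Alb iHB, 8.50 and 3.59 RPKM in L1L2_Alb iHP and 12.9 and 13.2 RPKM in L1L2_Alb iBEC. The pair of L1L2_Alb iHP libraries differed by more than the pair of iBEC libraries, and the fold change was -1.10 (SE 0.277, adjusted p = 0.0440). *Ccnb2*, cyclin B2, was at 23.2, 14.9 and 17.3 RPKM in the iHB, iHP and iBEC controls and at 9.79 RPKM in L1L2_Alb iHB, 5.17 and 2.47 RPKM in L1L2_Alb iHP and 9.48 and 12.8 RPKM in L1L2_Alb iBEC, and fell across stages, with a fold change of -1.18 (adjusted p = 0.0402). Both cyclin B genes have a pseudogene copy in RefSeq, with which they may share reads. *Ccna2*, cyclin A2 of S phase and early mitosis, had a fold change of -1.12 (adjusted p = 0.0453).

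Aurora B, encoded by *Aurkb*, is the kinase of the chromosomal passenger complex and corrects wrong attachments. It was at 17.7, 11.2 and 10.8 RPKM in the iHB, iHP and iBEC controls and at 8.28 RPKM in L1L2_Alb iHB, 2.72 and 3.00 RPKM in L1L2_Alb iHP and 6.89 and 8.72 RPKM in L1L2_Alb iBEC, with the groups apart and a fold change of -1.04 (adjusted p = 0.0396). The spindle checkpoint kinases fell as well. *Bub1* was at 5.94, 4.68 and 4.55 RPKM in the iHB, iHP and iBEC controls and at 2.21 RPKM in L1L2_Alb iHB, 1.29 and 0.769 RPKM in L1L2_Alb iHP and 2.23 and 2.58 RPKM in L1L2_Alb iBEC, and its fold change was -1.10 (SE 0.229, adjusted p = 0.0240). *Bub1b*, which encodes the checkpoint protein BUBR1, had a fold change of -1.09 (adjusted p = 0.0350) and *Ttk*, the checkpoint kinase MPS1, -0.98 (adjusted p = 0.0266). The remaining 4 missed the threshold. *Plk1*, the polo-like kinase that acts from centrosome to cytokinesis, was at 20.3, 14.4 and 13.8 RPKM in the iHB, iHP and iBEC controls and at 9.97 RPKM in L1L2_Alb iHB, 3.94 and 1.66 RPKM in L1L2_Alb iHP and 7.21 and 10.2 RPKM in L1L2_Alb iBEC. Its fold change of -1.25, with a 95% interval from -2.01 to -0.49 and an adjusted p of 0.0533, was larger in size than that of several called members, and its L1L2_Alb iHP values lay apart. *Aurka*, the Aurora kinase of spindle poles, had a fold change of -0.94 (adjusted p = 0.0501), *Nek2*, of centrosome separation, -0.72 (adjusted p = 0.0568) and *Melk* -0.79 (adjusted p = 0.0574). *Nek2* was highest in the iBEC control, at 5.85 RPKM, against 4.93 RPKM in the iHB control, whereas for the other 38 members the iHB control was the highest of the controls.

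**Figure D3:**
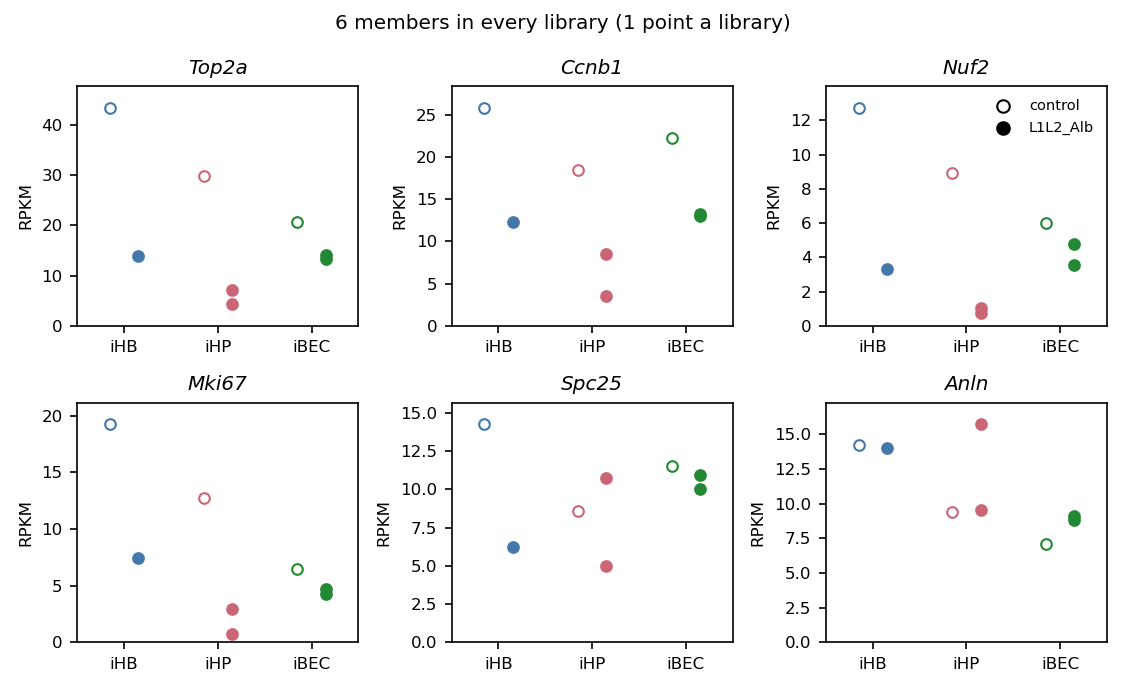
RPKM of 6 members by stage, 1 point a library, open for control and filled for L1L2_Alb. *Top2a*, *Ccnb1*, *Nuf2* and *Mki67* have each L1L2_Alb point below the control of its stage, whereas 1 of the 5 points of *Spc25* and 4 of the 5 of *Anln* lie above it.

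Centromere and kinetochore genes were lower in 6 of 6, at a median of -0.88, but 1 was called. This was *Nuf2*, a subunit of the NDC80 complex that grips the microtubule, at 12.7, 8.93 and 6.01 RPKM in the iHB, iHP and iBEC controls and at 3.33 RPKM in L1L2_Alb iHB, 1.06 and 0.781 RPKM in L1L2_Alb iHP and 4.77 and 3.58 RPKM in L1L2_Alb iBEC. It had the largest fall of the 39, on the log2 scale -1.48 (SE 0.346, adjusted p = 0.0349), and the lowest ratio to the control in iHB (0.262) and in the first L1L2_Alb iHP library (0.119). Its partner *Ndc80* was at 10.3, 5.78 and 4.68 RPKM in the iHB, iHP and iBEC controls and at 3.23 RPKM in L1L2_Alb iHB, 2.39 and 1.32 RPKM in L1L2_Alb iHP and 3.90 and 3.13 RPKM in L1L2_Alb iBEC. The groups did not overlap for it, and its fold change was -0.97, with a 95% interval from -1.59 to -0.36 and an adjusted p of 0.0583. *Spc25*, of the same complex, stood apart, at 14.3, 8.60 and 11.5 RPKM in the iHB, iHP and iBEC controls and at 6.23 RPKM in L1L2_Alb iHB, 4.99 and 10.8 RPKM in L1L2_Alb iHP and 10.9 and 10.0 RPKM in L1L2_Alb iBEC. The L1L2_Alb iHP values lay on either side of the control, so the direction in iHP was not settled by these 2 libraries, and across stages the fold change was -0.41, with a 95% interval from -1.05 to 0.23 and an adjusted p of 0.404. *Cenpa*, the histone that marks centromeres, had a fold change of -0.80 (adjusted p = 0.0585), *Cenpe*, a kinetochore motor, -0.96 (adjusted p = 0.0669) and *Cenpf* -0.71 (adjusted p = 0.105). *Cenpf* had the lowest level of the members in each control, at 2.78, 1.88 and 1.24 RPKM in iHB, iHP and iBEC. At such levels the 1 RPKM added before the log2 makes fold changes smaller. Its ratios to the control were 0.343 in iHB, 0.226 and 0.166 in iHP and 0.888 and 0.698 in iBEC.

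Spindle motors and assembly factors were lower in 7 of 7 and fell in 5, with a median of -1.13. *Kif11*, the motor that pushes the spindle poles apart, was at 12.1, 8.05 and 6.21 RPKM in the iHB, iHP and iBEC controls and at 4.19 RPKM in L1L2_Alb iHB, 1.59 and 1.23 RPKM in L1L2_Alb iHP and 3.03 and 4.38 RPKM in L1L2_Alb iBEC. No L1L2_Alb value reached a control value, and the fold change was -1.29 (SE 0.273, adjusted p = 0.0257). *Kif23*, a motor of the central spindle, was at 18.3, 10.3 and 6.72 RPKM in the iHB, iHP and iBEC controls and at 6.40 RPKM in L1L2_Alb iHB, 2.90 and 1.73 RPKM in L1L2_Alb iHP and 4.32 and 5.34 RPKM in L1L2_Alb iBEC, and had a fold change of -1.18 (adjusted p = 0.0405). *Tpx2*, which activates Aurora A on the spindle, was at 23.8, 16.5 and 15.8 RPKM in the iHB, iHP and iBEC controls and at 9.77 RPKM in L1L2_Alb iHB, 7.86 and 4.09 RPKM in L1L2_Alb iHP and 9.77 and 10.4 RPKM in L1L2_Alb iBEC. It fell by 1.05 on the log2 scale, with an adjusted p of 0.0353. *Nusap1*, which bundles spindle microtubules, had a fold change of -1.13 (adjusted p = 0.0405) and *Kif20a*, a motor of the midzone, -0.97 (adjusted p = 0.0450). *Kif2c*, which takes microtubules apart at centromeres, had a fold change of -1.14 (adjusted p = 0.0509) and *Kif4*, a chromosome-bound motor with a pseudogene copy in RefSeq, -0.96 (adjusted p = 0.0552), and both had separate groups of libraries.

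The chromosomal passengers and cytokinesis genes were the most uneven group, with 3 falls, 5 of 6 lower and a median of -0.84. *Prc1*, which bundles the microtubules of the central spindle, had the smallest adjusted p of the 39. It was at 25.5, 19.6 and 19.8 RPKM in the iHB, iHP and iBEC controls and at 11.0 RPKM in L1L2_Alb iHB, 8.41 and 6.50 RPKM in L1L2_Alb iHP and 12.8 and 11.9 RPKM in L1L2_Alb iBEC, and the fold change was -1.02 (SE 0.196, adjusted p = 0.0182). It was called in 11 of 13 alternative fits. *Birc5*, the passenger survivin, was at 20.1, 12.0 and 15.9 RPKM in the iHB, iHP and iBEC controls and at 7.65 RPKM in L1L2_Alb iHB, 3.62 and 2.97 RPKM in L1L2_Alb iHP and 6.69 and 11.6 RPKM in L1L2_Alb iBEC. It fell, the fold change being -1.22 (SE 0.244, adjusted p = 0.0211), and it was the lowest member against the control in the first L1L2_Alb iBEC library, at a ratio of 0.419, while the second was at 0.726. *Cdca8*, the passenger borealin, had a fold change of -0.95 (adjusted p = 0.0453). *Incenp*, the scaffold of the complex, was at 32.4, 18.8 and 14.3 RPKM in the iHB, iHP and iBEC controls and at 14.1 RPKM in L1L2_Alb iHB, 7.59 and 9.19 RPKM in L1L2_Alb iHP and 13.7 and 13.5 RPKM in L1L2_Alb iBEC. In iBEC it was at 0.956 and 0.945 of the control, and its fold change was -0.73, with a 95% interval from -1.27 to -0.19 and an adjusted p of 0.0920.

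Of the 2 genes of the cleavage furrow in this group neither was called. *Anln* encodes anillin, the scaffold of the contractile ring, which binds actin and myosin. It was at 14.2, 9.40 and 7.11 RPKM in the iHB, iHP and iBEC controls and at 14.0 RPKM in L1L2_Alb iHB, 15.7 and 9.55 RPKM in L1L2_Alb iHP and 8.82 and 9.08 RPKM in L1L2_Alb iBEC. It was level in iHB, above the control in both L1L2_Alb iHP libraries, at ratios of 1.67 and 1.02, and above it in both iBEC libraries, at 1.24 and 1.28. The fold change of 0.23, with a 95% interval from -0.24 to 0.71 and an adjusted p of 0.539, was the only one of the 39 above 0, and it stayed above 0 in the 13 alternative fits. *Ect2*, which activates RhoA at the furrow, was at 9.63, 7.84 and 6.18 RPKM in the iHB, iHP and iBEC controls and at 3.53 RPKM in L1L2_Alb iHB, 5.00 and 6.37 RPKM in L1L2_Alb iHP and 5.32 and 5.79 RPKM in L1L2_Alb iBEC. Every L1L2_Alb library was below its own control, yet the groups overlapped, and the fold change was -0.53, with a 95% interval from -1.07 to 0.01 and an adjusted p of 0.199.

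Anaphase and mitotic exit genes fell in 3 of 4, at a median of -1.06. *Ube2c*, the ubiquitin-conjugating enzyme of the anaphase-promoting complex, had the highest level of the members in every control and was at 47.1, 37.2 and 32.4 RPKM in the iHB, iHP and iBEC controls and at 22.6 RPKM in L1L2_Alb iHB, 10.7 and 9.88 RPKM in L1L2_Alb iHP and 22.2 and 26.7 RPKM in L1L2_Alb iBEC. All L1L2_Alb libraries were below all controls, with a fold change of -1.06 (SE 0.255, adjusted p = 0.0376). *Cdc20*, the activator of the complex, was at 34.0, 22.9 and 21.1 RPKM in the iHB, iHP and iBEC controls and at 17.9 RPKM in L1L2_Alb iHB, 9.03 and 10.7 RPKM in L1L2_Alb iHP and 14.9 and 15.9 RPKM in L1L2_Alb iBEC, and had a fold change of -0.81 (adjusted p = 0.0350). *Cdca3* was placed in this group although it helps trigger mitotic entry. It was at 18.9, 12.5 and 15.1 RPKM in the iHB, iHP and iBEC controls and at 7.47 RPKM in L1L2_Alb iHB, 3.39 and 1.58 RPKM in L1L2_Alb iHP and 9.37 and 11.8 RPKM in L1L2_Alb iBEC. Its L1L2_Alb iHP values were low beside the iBEC values, and it fell across stages, by a fold change of -1.24 (SE 0.317, adjusted p = 0.0469). *Espl1*, the protease separase that cuts cohesin, had a fold change of -1.06 (adjusted p = 0.0598), and was at 0.269 of the control in iHB and at 0.184 and 0.108 in iHP.

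*Top2a*, the topoisomerase that untangles sister chromosomes, was at 43.4, 29.9 and 20.8 RPKM in the iHB, iHP and iBEC controls and at 13.8 RPKM in L1L2_Alb iHB, 7.22 and 4.40 RPKM in L1L2_Alb iHP and 14.0 and 13.3 RPKM in L1L2_Alb iBEC. Its log2 fold change was -1.44 (SE 0.310, adjusted p = 0.0272), next to that of *Nuf2* in size. *Mki67*, the proliferation marker Ki-67, was at 19.2, 12.8 and 6.44 RPKM in the iHB, iHP and iBEC controls and at 7.44 RPKM in L1L2_Alb iHB, 2.94 and 0.778 RPKM in L1L2_Alb iHP and 4.25 and 4.74 RPKM in L1L2_Alb iBEC. In the second L1L2_Alb iHP library it was at 0.061 of the control, the lowest ratio of any member, and the pair of iHP libraries differed for it by 1.15 on the log2 scale, the widest gap of the 39. Its fold change was -1.37, with a 95% interval from -2.28 to -0.46 and an adjusted p of 0.0675. The 2 transcription factors that drive the group were not called. *Foxm1* was at 6.82, 5.23 and 4.49 RPKM in the iHB, iHP and iBEC controls and at 3.58 RPKM in L1L2_Alb iHB, 1.65 and 0.742 RPKM in L1L2_Alb iHP and 3.14 and 3.32 RPKM in L1L2_Alb iBEC, and had a fold change of -0.91 (adjusted p = 0.0758). *Mybl2*, which encodes B-MYB, was at 8.73, 5.93 and 3.98 RPKM in the iHB, iHP and iBEC controls and at 5.93 RPKM in L1L2_Alb iHB, 3.05 and 2.62 RPKM in L1L2_Alb iHP and 2.61 and 3.50 RPKM in L1L2_Alb iBEC. All 5 L1L2_Alb values of *Mybl2* were below their own controls, with a fold change of -0.56, with a 95% interval from -1.03 to -0.09 and an adjusted p of 0.129.

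**Figure D4:**
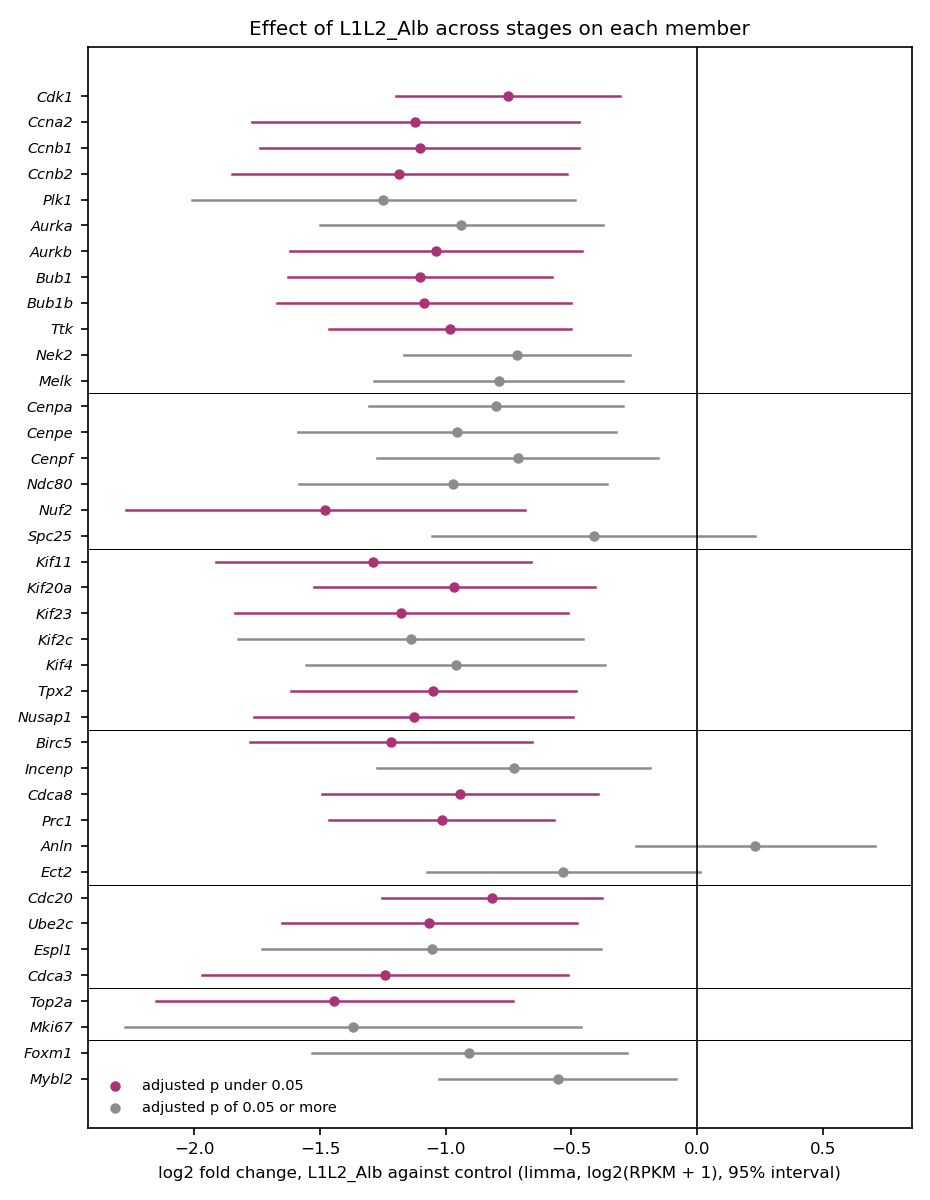
Log2 fold change of L1L2_Alb against control across stages for the 39 members (rows, by role), with 95% intervals from limma on log2(RPKM + 1) and colour for an adjusted p under 0.05. The 21 called members are all below 0, the interval of *Spc25*, *Ect2* and *Anln* spans 0, and *Anln* is the only point above it.

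Of the 39 members 16 overlap another gene in RefSeq, among them *Ccna2* with *Exosc9*, *Aurka* with *Cstf1*, *Prc1* with *Rccd1*, *Cdc20* with *Elovl1* and *Kif20a* with *Cdc23* and *Brd8*. The kit does not mark the strand, so reads of the shared parts cannot be told apart.

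In single stages each L1L2_Alb library was set against 1 control with no test. In iHB the members had a median of 0.414 of the control, from 0.262 for *Nuf2* to 0.986 for *Anln*, and 33 of 39 were at 0.5 of it or less, against 13.4% of all genes tested. In iHP the medians were 0.339 and 0.230, and 31 members were at 0.5 or less in both libraries, against 10.9% of genes. In iBEC they were 0.656 and 0.739, and 0 members were at 0.5 or less in both, against 2.17% of genes. On the log2(RPKM + 1) scale the members' median difference was -1.15 in iHB, -1.23 and -1.65 in iHP and -0.53 and -0.38 in iBEC. The median of all genes was -0.09 in iHB, 0.01 and -0.03 in iHP and 0.22 and 0.26 in iBEC. After scaling to the upper quartile the iBEC medians of the members were -0.68 and -0.63, beside 0.09 and 0.05 for all genes. The members' median was thus below that of all genes in each L1L2_Alb library under either scaling. The first L1L2_Alb iHP library was the higher of its pair in 32 members. In iHP the pair differed by 0.39 in the median member and by 0.43 in the median gene, and in iBEC by 0.17 and 0.25.

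**Figure D5:**
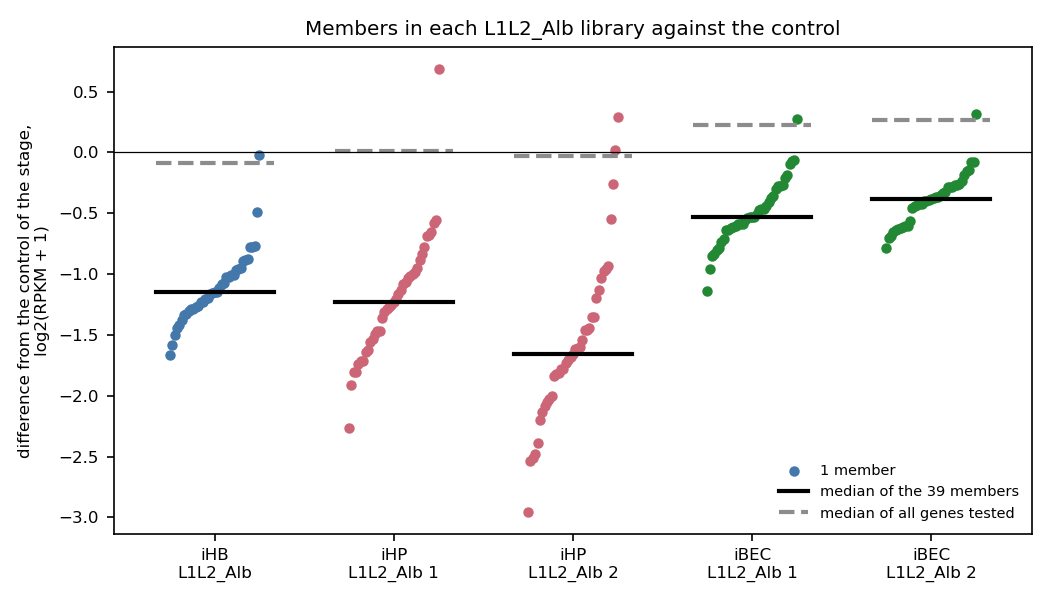
Difference of each member (points, sorted) from the control of its stage in the 5 L1L2_Alb libraries, on the log2(RPKM + 1) scale, with the median of the 39 members (black line) and of all 13421 genes tested (dashed grey line). The members' median is -1.15 in iHB, -1.23 and -1.65 in iHP and -0.53 and -0.38 in iBEC, below the median of all genes in each library.

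Whether the effect differed between iBEC and iHP was tested as the difference of the 2 effects in a fit of the 6 conditions. The difference was positive for 38 of 39 members, *Anln* being the exception at -0.06 (adjusted p = 0.999), with a median of 0.93 beside 0.24 for all genes. Limma called 0 of 39 members and 0 of 13421 genes (0%), and 11 members and 1014 genes had an unadjusted p under 0.05. The largest differences were those of *Mki67*, at 1.94, with a 95% interval from 0.23 to 3.65 and an adjusted p of 0.587, and *Nuf2*, at 1.93, with a 95% interval from 0.67 to 3.18 and an adjusted p of 0.383. A difference between the stages was therefore not shown, and 2 residual degrees of freedom stand behind it.

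Between the L1L2_Alb cells of both stages, 37 of 39 members were higher in iBEC than in iHP, at a median log2 fold change of 0.86, beside -0.01 for all genes. *Cdca3* alone was called, at 1.78 (SE 0.358, adjusted p = 0.0456), while 424 of all genes rose (3.16%) and 68 fell. The call of *Cdca3* was lost when any of the 4 libraries was left out. *Anln* and *Ect2* were the 2 members with a negative sign, at -0.42 (adjusted p = 0.569) and -0.02 (adjusted p = 0.980).

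The stages were compared with genotype in the fit. In controls alone every member was lower in iHP than in iHB, at a median ratio of 0.673 and a range from 0.561 for *Ndc80* to 0.814 for *Ect2*. In the iBEC control 38 of 39 were lower than in iHB, at a median of 0.641, from 0.335 for *Mki67* to 1.18 for *Nek2*. The summed blood markers were also lower in these controls, at 887.5, 627.2 and 188.0 RPKM. No share over all genes was taken for the ratios between controls, and the values were not scaled between libraries. In the fit over both genotypes iHP was lower than iHB for 38 of 39 members and for 9114 of 13421 genes. The median log2 fold change was -0.74 beside -0.15 for all genes. Limma called 0 members and 0 genes (0%), and 17 members and 1158 genes had an unadjusted p under 0.05. For iBEC against iHB 32 members and 9486 of 13421 genes were lower in sign, and the median was -0.19 beside -0.25 for all genes. Limma called 0 members against 5.72% of genes (395 higher, 373 lower), and 2 members, *Mybl2* and *Anln*, had an unadjusted p under 0.05. Scaling to the upper quartile changed the split of all genes to 496 higher and 179 lower, quantile normalization to 486 and 284, and the former turned the members' median to 0.05.

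Further genes of mitosis outside the 39 were described from a list of 87, of which 82 were tested. In L1L2_Alb libraries 74 were lower, 16 fell, 0 rose and the median log2 fold change was -0.68. The largest falls were of *Ncapd2*, a subunit of condensin, which compacts chromosomes, at -1.39 (SE 0.295, adjusted p = 0.0258), of *Kif15*, a spindle motor, at -1.35 (SE 0.331, adjusted p = 0.0400), and of *Depdc1b* at -1.27 (SE 0.300, adjusted p = 0.0355). *Ncapd2* was at 27.1, 18.4 and 14.0 RPKM in the iHB, iHP and iBEC controls and at 9.47 RPKM in L1L2_Alb iHB, 3.71 and 2.85 RPKM in L1L2_Alb iHP and 8.93 and 9.37 RPKM in L1L2_Alb iBEC, so its groups did not overlap. Among the 8 with a positive sign was *Wee1*, the kinase that holds CDK1 inactive, at 0.56 (95% interval 0.00 to 1.13, adjusted p = 0.190). In the second L1L2_Alb iHP library *Wee1* was below the control, at 5.50 against 6.10 RPKM. The securin gene *Pttg1* was at 0.49 (95% interval 0.02 to 0.96, adjusted p = 0.171). The others were *Psrc1* at 0.52, *Zwint* at 0.44, *Kif2a* at 0.27, *Gtse1* at 0.13, *Ube2s* at 0.12 and *Ncaph2* at 0.06. The subunits of the anaphase-promoting complex, which CDC20 directs, were described beside them. Of 13 subunits 9 were higher and 4 lower in sign, limma called 0, 1 had an unadjusted p under 0.05, and the median was 0.03. TTTGAA was in the promoters of 35 of 69 further mitosis genes (50.7%) and of 1 of 12 subunit genes (8.33%).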

How the data were processed

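RNA of 8 libraries, made with a TruSeq kit that does not mark strand, was sequenced by the authors. They deposited 1 table of RPKM, 1 value per gene and library, which were scaled by gene length and library size and not between libraries. The unit was settled by short RNAs, whose values and RefSeq lengths gave whole numbers of reads, and with them the depth of each library. The submitters' processing notes name Bowtie 0.12.2 and the mm8 build without a role, and the annotation and counting are not given in the sources used here. RefSeq names were matched by symbol and its coordinates are GRCm38.p6. Of 23471 entries, 4 with a repeated symbol were left out, and 3442 genes were at 0 in every library. 0 columns of samples were left unused.

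Limma 3.58.1 (R 4.3.3), by lmFit and a trended eBayes, was run on log2(RPKM + 1) for genes whose mean reached 1 RPKM. One fit held stage and genotype, with 4 residual degrees of freedom, and another the 6 conditions, with 2. All p are two-sided and adjusted by Benjamini-Hochberg over all 13421 genes, with a threshold of 0.05. The fits were tested on simulated data. In single stages there was no test. Reads, with a floor of 3, served for depth only and no count model was run. In each library 90.2% to 93.8% of the short RNAs came out as whole reads within 0.003 reads. SE is the standard error.

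The members and lists were chosen with earlier results of these data known. All 39 members are named, and of the further mitosis genes the 3 largest changes in each direction among those called. *Wee1*, *Pttg1* and the other further mitosis genes with a positive sign, and single blood markers, were named after their values were seen. The values of 1 marker gene are not reported here. Alternatives were a pseudocount of 0.1, no filter, a mean of at least 5 RPKM, scaling to the percentile 75, quantile normalization, no trend, and leaving out each stage or, in turn, each paired L1L2_Alb library. Python 3.11.15, numpy 2.4.6, pandas 2.3.3 and matplotlib 3.10.9 were used.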

Additional observations from a re-analysis of the deposited data

Results flagged for a closer look

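*Anln* had a difference just below 0 in iHB and above 0 in each L1L2_Alb library of iHP and iBEC, and it was not called across stages. The difference of L1L2_Alb from control on the log2(RPKM + 1) scale was -0.018 in iHB, where each genotype has 1 library, 0.35 as the mean of the 2 iHP libraries and 0.30 as the mean of the 2 iBEC libraries. The difference between iHB and the other stages was not tested, and the second L1L2_Alb iHP library, at 9.55 RPKM, was close to the iHP control, at 9.40 RPKM.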

How the results depend on the processing

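In each of the 13 alternatives every member that was tested kept the sign of its effect of L1L2_Alb, with *Anln* above 0 and the others below. The filter at 5 RPKM tested 28 members. The 21 members called were 1 with no filter and 32 with quantile normalization, 7 to 17 when a library of a pair was left out, and 0 without the iHB or the iHP stage. The count of all genes called was 1284, and was 686 with no filter, 844 without L1L2_Alb iHP replicate 1, 793 without L1L2_Alb iBEC replicate 2, 326 without iHB and 132 without iHP. Leaving out a stage leaves fewer libraries. Without the iBEC stage the split of all genes turned to 523 higher and 873 lower, from 832 and 452. Of the remaining alternatives, a pseudocount of 0.1 gave 16 member calls, a mean of at least 5 RPKM 21 of 28 tested, upper-quartile scaling 30, no trend 22 and leaving out iBEC 24. For L1L2_Alb iBEC against L1L2_Alb iHP, the 1 member called was 0 with no filter, 0 with quantile normalization, 3 with upper-quartile scaling and 0 when any library was left out. With the replicate number as a block it was 2, and 904 instead of 492 genes of all. The differences between replicates 1 and 2 were uncorrelated between iHP and iBEC (r = -0.02 over 13421 genes, 2 pairs). This does not show whether libraries with the same number share a culture or a batch. For the comparisons that called 0 members, each alternative also called 0. Where no cause is given, the cause was not tested. Reads were recovered for 32 of the 39 members, and the 3 control libraries, 1 a stage, limit the precision.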

Other observations

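Of the further mitosis genes, 2 were called between iBEC and iHB and 1 between the L1L2_Alb cells of iBEC and iHP. *Cenpm*, a centromere gene, was higher in iBEC than in iHB, with a log2 fold change of 2.27 (limma adjusted p = 0.0135), at 46.0 RPKM in the iBEC control and 11.9 and 22.2 RPKM in L1L2_Alb iBEC, beside 5.61 and 3.48 RPKM in control and L1L2_Alb iHB. *Wee1* was lower in iBEC than in iHB, with a log2 fold change of -1.56 (adjusted p = 0.0247). *Cdc25b*, the phosphatase that opens mitosis by activating CDK1, was higher in L1L2_Alb iBEC than in L1L2_Alb iHP, with a log2 fold change of 1.57 (adjusted p = 0.0397), at 6.01 and 4.94 RPKM against 1.28 and 1.07 RPKM, while the controls were at 6.10 RPKM in iBEC and 4.47 RPKM in iHP.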
